A study of Drosophila melanogaster with 4 samples.

Results

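The regions described here are the weaker of the reproducible binding sites of HP1c on 3 autosomal arms of Drosophila melanogaster. Its binding was read by ChIP-seq, the sequencing of DNA that is immunoprecipitated with a protein, in wild-type Oregon-R embryos from population cages, fixed with 1.8% formaldehyde. The stage is labelled 14 to 16 h, and the protocol gives 16 h as the upper age at collection. The series holds 2 ChIP samples and 2 input samples, all labelled HP1c MO 462 and of the same strain, genotype and stage. For each ChIP replicate the authors deposited a list of significantly enriched regions with a position and a score, on FlyBase release 5, and they deposited a further list for the replicate set, termed the combined list.

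A region was taken as weak when its score in replicate 1 lay below 0.624, the median of the 2690 replicate 1 regions on 2L, 3L and 3R. Members were chosen by this score and by an overlap of 1 base or more with any replicate 2 region. There were 883 such members, termed weak shared regions, among 1345 weak regions on these arms and 4669 regions in the whole replicate 1 list. They were set against the 462 weak regions found in replicate 1 alone. Regions with a score of 0.998 or more, the 75th percentile, are termed strong (673 regions), and the 672 regions between the median and that value are termed middle. The score is the authors' own and its scale is not stated, so it ranks regions within 1 list.

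HP1c is a paralog of heterochromatin protein 1 (HP1a), the chromodomain protein known for its place in pericentric heterochromatin and its affinity for methylated histone H3 lysine 9. HP1c is found mainly in euchromatin, where it associates with the zinc-finger proteins WOC and ROW at the promoters of active genes. The chromatin came from whole embryos, which hold many cell types, so enrichment in fewer cells and weaker enrichment per cell cannot be told apart. The lists hold no read counts, so sequencing depth is unknown, and the labels do not state whether the replicates were separate embryo collections.

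Overlap with replicate 2 and the score in replicate 1 chose the members, so their number is a description. The 883 weak shared regions were 65.7% of the weak regions (exact 95% binomial interval 63.0 to 68.2), against 82.1% recurrence over all regions of the 3 arms. Of the middle regions 652 of 672 recurred, and of the strong regions 673 of 673. On 3L 297 of 437 weak regions recurred (68.0%), on 3R 339 of 517 (65.6%) and on 2L 247 of 391 (63.2%). The intervals of the 3 arms overlapped one another. Intervals here cover counting error only, neighbouring regions are not independent, and no test was run on differences between groups of regions. The shared regions covered 1.77 Mb, or 2.35% of the 3 arms, and those of replicate 1 alone 0.781 Mb, or 1.03%.

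The threshold cuts through a continuum of scores. The 3 shared regions just inside it were 3L 17603655 to 17605746, 3R 5443291 to 5445550 and 2L 1184675 to 1186776, with scores of 0.6240, 0.6239 and 0.6234. The 3 just outside it were 3L 19088670 to 19091952, 3L 10759188 to 10761560 and 2L 10465936 to 10469657, with scores of 0.6244, 0.6258 and 0.6261. Over the 25 shared regions on each side, the median width was 2195 bp inside and 2454 bp outside, the median score of the match in replicate 2 was 0.777 inside and 0.689 outside, and the median distance to a strong region was 24666 bp inside and 21379 bp outside.

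Most weak shared regions were weak in the second sample too, a measure that the choice of members did not use. The match of a member is the replicate 2 region that shared the most bases with it. The match lay below the replicate 2 median of 0.773 for 651 of 883 members (73.7%, 70.7 to 76.6), against 38.5% over all shared regions of the 3 arms. For 205 members (23.2%) the match was a middle region of replicate 2. For 27 members (3.06%, 2.02 to 4.42) the match was at or above the replicate 2 75th percentile of 1.23, against 30.8% over all shared regions. These 27 were 13 of 247 members on 2L (5.26%), 9 of 297 on 3L (3.03%) and 5 of 339 on 3R (1.47%). Within the members the score of 1 list said little of the score in the other, with a Spearman rho of 0.223 over 883 regions that share libraries, given as a description over a range of scores that the rule cut short.

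**Figure D1:**
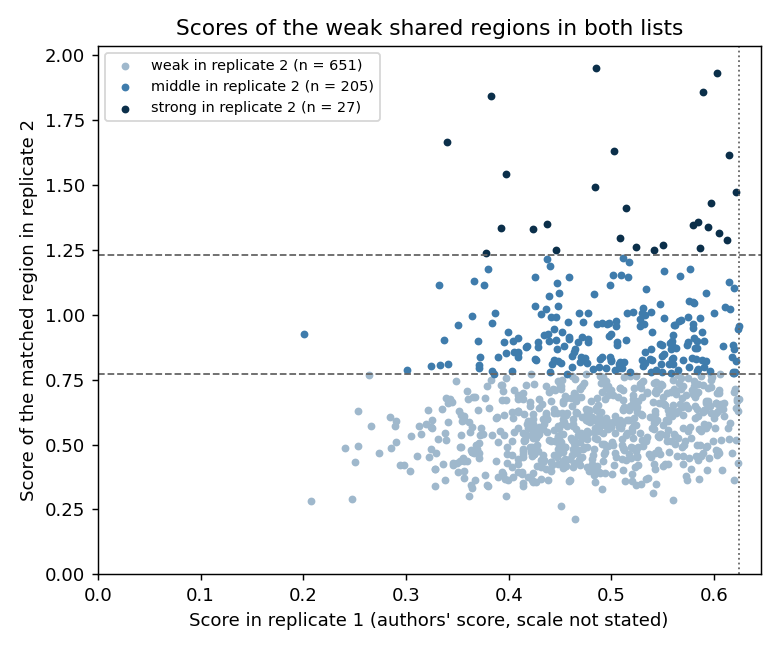
Each point is 1 of the 883 weak shared regions, with its replicate 1 score on the x axis and the score of its matched replicate 2 region on the y axis (both the authors' score, scale not stated). The dotted line is the replicate 1 median (0.624), the dashed lines are the replicate 2 median (0.773) and 75th percentile (1.23), and 651 points lie under the lower dashed line.

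Most pairs of regions sat on the same place to within a fraction of their width. Closeness is partly fixed, since every pair overlaps by the rule and the match is the region with the largest overlap. The midpoints of a member and its match lay a median of 144.5 bp apart (quartiles 52.2 and 326 bp). The shared stretch had a median of 1849 bp, or 96.5% of the member and 89.2% of the match, and for 800 of 883 members (90.6%) it was at least 50% of both regions. Of the members, 872 overlapped 1 replicate 2 region each and 11 overlapped 2. In 3 members less than 10% of the width was shared, and the largest distance between midpoints was 4295.5 bp.

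The members with the highest replicate 2 scores were of different kinds. On 2L these were 13782521 to 13784989 (0.589 in replicate 1, 1.86 in replicate 2), 13832137 to 13834051 (0.383 and 1.84) and 4226119 to 4228399 (0.484 and 1.49). On 3L they were 11812261 to 11813576 (0.340 and 1.67), 15150742 to 15152993 (0.502 and 1.63) and 19992469 to 19994578 (0.622 and 1.47). On 3R they were 7600924 to 7602653 (0.485 and 1.95), 10719152 to 10721235 (0.603 and 1.93) and 12471806 to 12474220 (0.614 and 1.62). Counted from the highest score, the first of the 3R members ranked 1928 among the 2690 replicate 1 regions, and its match ranked 117 in replicate 2. That member lay 462 bp from a strong region, and its match, 5661 bp wide, also carried a strong replicate 1 region. The 2 ranks are thus not of the same stretch.

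Some of these matched a broad replicate 2 region that also took in a strong region of replicate 1. Member 13832137 to 13834051 on 2L lay 26 bp from a strong region, and the replicate 2 region 13832169 to 13836671 overlapped both. Member 11812261 to 11813576 on 3L lay 190 bp from a strong region, and its match was 4563 bp wide. In all, 12 of 883 members (1.36%) had a match that also carried a strong replicate 1 region, at distances of 26 to 1611 bp (median 196.5 bp). Other members with a high match lay far from strong regions of replicate 1. Member 12471806 to 12474220 on 3R and its match, 12471835 to 12474251, had almost the same ends, and the nearest strong region was 302745 bp away. Member 4226119 to 4228399 on 2L started at the same base as its match and lay 103310 bp from a strong region, with another replicate 1 region 660 bp away.

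The weak shared regions were wider than the weak regions of replicate 1 alone. Their median width was 1989 bp (exact interval of the median 1967 to 1999, quartiles 1742 and 2086 bp), against 1650 bp (1609 to 1694, quartiles 1435 and 1889 bp) for regions of replicate 1 alone. Width is not independent of the rule, since a wider region can share a base more easily. With the midpoint of the region inside a replicate 2 region as the criterion, the medians were 1991.5 bp for shared regions and 1658 bp for those of replicate 1 alone. The difference had the same sign on each arm: 1984 against 1662 bp on 2L, 2002 against 1674.5 bp on 3L, and 1971 against 1622.5 bp on 3R.

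The widths of the weak shared regions gathered around 2 kb. Between 1900 and 2099 bp lay 356 of 883 shared regions (40.3%) and 86 of 462 regions of replicate 1 alone (18.6%). At the lower end, from 1301 bp, the narrowest width of replicate 1 on these arms, to 1499 bp, lay 105 shared regions (11.9%) and 153 regions of replicate 1 alone (33.1%). Of the middle regions 34 of 672 (5.06%) and of the strong regions 2 of 673 (0.297%) had 1900 to 2099 bp, and most middle and strong regions were wider. The widest members were 6969926 to 6975886 on 3L (5961 bp), 7199513 to 7204780 on 2L (5268 bp) and 18412252 to 18417487 on 3R (5236 bp). In replicate 2 the first matched a region of 1463 bp, the second had 2 overlapping regions with 2903 bp in the better match, and the third also had 2, with 2216 bp. The widest weak regions of replicate 1 alone were 9822830 to 9826368 on 3R (3539 bp), 3631752 to 3635186 on 3L (3435 bp) and 248637 to 251984 on 2L (3348 bp). The 3R region lay 660 bp from the nearest replicate 2 region, and the 3L region 63969 bp.

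**Figure D2:**
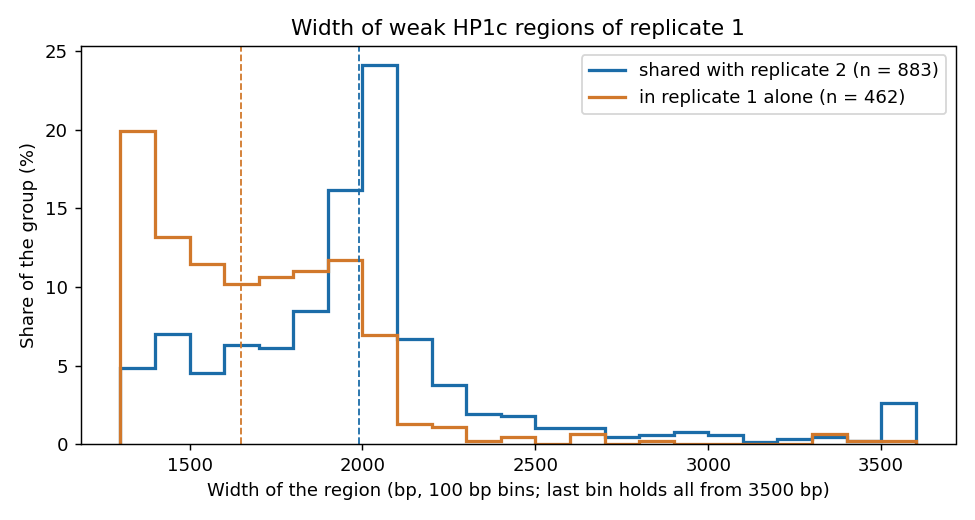
Share of each group (y axis, %) by width of the region (x axis, bp, 100 bp bins) for 883 weak shared regions and 462 weak regions of replicate 1 alone; dashed lines mark the medians of 1989 and 1650 bp. The shared regions peak at about 2 kb and those of replicate 1 alone at the lowest widths.

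Among the weak regions, recurrence differed more between width groups than between score groups. The rule bears on this order, since a wider region can share a base more easily. It also cut the scores at the median and left the widths uncut. In the quartile groups of width, narrowest to widest, 41.2%, 55.4%, 77.2% and 89.0% of the weak regions recurred. In those of score, low to high, 48.7%, 65.3%, 66.4% and 82.7% recurred. Regions above the weak regions' median width and below their median score recurred in 133 of 176 cases (75.6%, 68.5 to 81.7), and those below the median width and above the median score in 75 of 174 cases (43.1%, 35.6 to 50.8). The same order held when replicate 2 chose the weak regions, with 57 of 92 (62.0%, 51.2 to 71.9) and 35 of 92 (38.0%, 28.1 to 48.8). Width and score were tied closely among the shared regions (Spearman rho 0.709 over 883 regions) and loosely among those of replicate 1 alone (0.216 over 462), as descriptions over regions of 1 library.

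**Figure D3:**
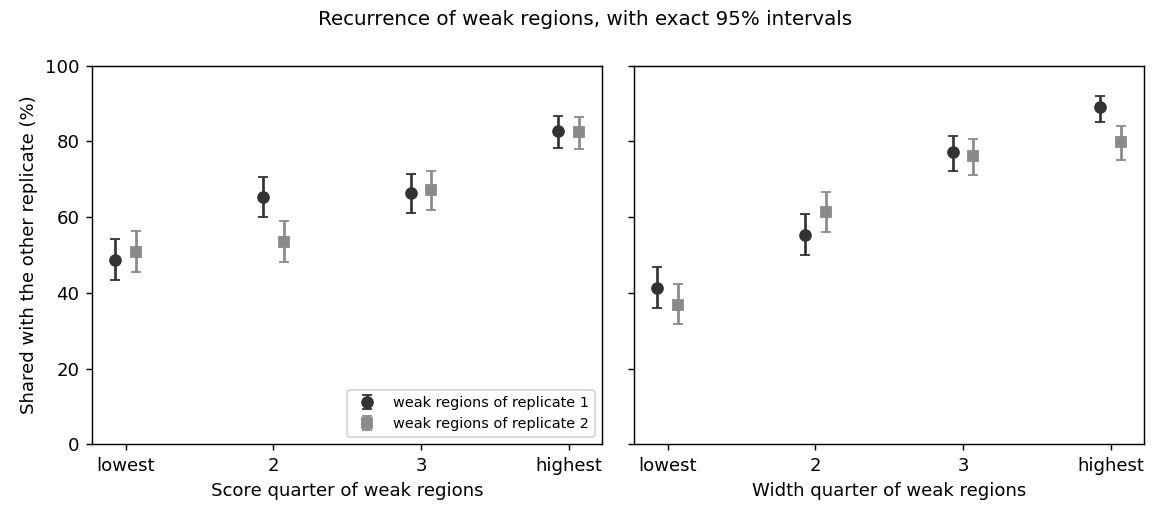
Share of weak regions that were shared with the other replicate (y axis, %) by quartile group of score (left) and of width (right), for the weak regions of replicate 1 (circles) and of replicate 2 (squares); bars are exact 95% binomial intervals. Recurrence in replicate 1 was 41.2% in the narrowest and 89.0% in the widest group. A wider region can share a base more easily, and scores were cut at the median by the rule.

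Weak shared regions lay nearer to strong regions of replicate 1 than weak regions of replicate 1 alone did. The median distance, edge to edge, was 25825 bp for shared regions (quartiles 7542.5 and 66698.5 bp) against 39745 bp for those of replicate 1 alone (quartiles 13335 and 95887 bp). Middle regions had a median of 22041.5 bp. Within 10 kb of a strong region lay 273 of 883 shared regions (30.9%, 27.9 to 34.1) and 93 of 462 of replicate 1 alone (20.1%, 16.6 to 24.1), against 28.8% of all regions below the strong threshold. More than 100 kb away lay 141 shared regions (16.0%) and 109 of replicate 1 alone (23.6%). On 2L the shares within 10 kb were 34.8% of shared regions against 18.1% of those of replicate 1 alone, on 3L 27.6% against 20.7%, and on 3R 31.0% against 21.3%.

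The share within 10 kb was higher for shared regions in each quartile group of width and of score, with intervals that overlapped in all of them except the highest score group. In the narrowest group it was 29.5% of shared regions against 22.2% of those of replicate 1 alone, and in the wider groups in turn 31.2% against 18.7%, 30.8% against 16.9% and 31.5% against 21.6%. From the lowest to the highest score group it was 33.1% against 21.9%, 23.9% against 20.4%, 33.6% against 23.9% and 32.7% against 6.90%. In the highest score group 4 of 58 regions of replicate 1 alone lay within 10 kb, against 91 of 278 shared regions. Shared regions were also nearer to replicate 1 regions of any score, with a median of 4757 bp to the next region, against 6684 bp for those of replicate 1 alone. The shared regions were close to the median of 4867 bp over all regions below the strong threshold and 4587 bp over the whole list on these arms. The closest neighbour of a shared region was strong in 231 of 883 cases (26.2%) and of a region of replicate 1 alone in 108 of 462 (23.4%), with strong regions making up 25.02% of the list.

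When replicate 2 gave both the weak and the strong regions, the difference was smaller than the counting intervals. Of its 1351 weak regions, 858 were shared with replicate 1 (63.5%), against 80.8% over all its regions on the arms, and 75.9% of the shared ones matched a weak region of replicate 1, against 39.2% over all shared regions. Their median distance to a strong region of replicate 2 was 28637.5 bp, against 29019 bp for the 493 regions of replicate 2 alone, and 26.9% against 26.8% lay within 10 kb, with 27.9% over all regions below the strong threshold. On 2L and 3L the shared regions had the higher share (29.3% against 25.6%, and 25.3% against 24.2%) and on 3R those of replicate 2 alone (26.8% for shared regions against 30.2%). Each list of weak regions was also set against the strong regions of the other replicate. Of the weak regions of replicate 1, 30.5% of the shared and 18.8% of the lone ones lay within 10 kb of a strong region of replicate 2. Part of that difference is fixed by the choice of groups. Lone regions overlap no replicate 2 region, while the 27 of 883 shared regions with a strong match (3.06%) count as near by their overlap. Of the weak regions of replicate 2, 30.2% of the shared and 20.5% of the lone ones lay within 10 kb of a strong region of replicate 1. Here too only shared regions can overlap such a landmark and so count as near, and how many did is not given. With landmarks that were strong in both samples, the shares were 23.8% against 15.2% for weak regions of replicate 1 and 23.1% against 16.8% for those of replicate 2. The landmarks strong in both, and the replicate 1 landmarks for replicate 2, were chosen after the data were seen.

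**Figure D4:**
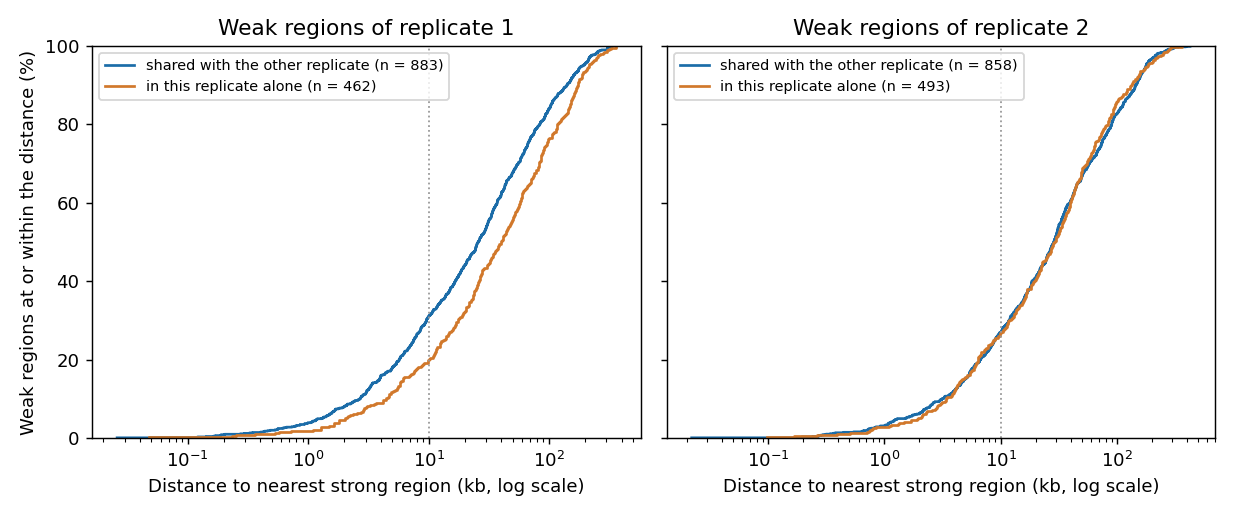
Cumulative share of weak regions (y axis, %) by distance to the nearest strong region of the same list (x axis, kb, log scale), for shared regions and regions of 1 replicate alone; the dotted line marks 10 kb. In replicate 1 (left) the curve of the 883 shared regions lies above that of the 462 lone regions (30.9% against 20.1% at 10 kb), and in replicate 2 (right) the curves run together (26.9% against 26.8%).

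Not every member was close to a strong region. The member farthest from one was 14697348 to 14700714 on 2L, at 337018 bp, with a score of 0.299 in replicate 1 and 0.421 in replicate 2. On 3R it was 14897944 to 14899965, at 312088 bp (0.542 and 0.423), and on 3L it was 10198401 to 10200435, at 305174 bp (0.501 and 0.585). The longest run of members with no other replicate 1 region between them had 7 regions on 3R, from 27511955 to 27598818, with replicate 1 scores of 0.447 to 0.620 and replicate 2 scores of 0.457 to 0.833. The longest on 2L had 5, from 16250918 to 16288845, and the longest on 3L had 5, from 3410837 to 3453849. Most runs held a single member: 105 of 164 on 2L, 142 of 207 on 3L and 145 of 225 on 3R. Members made up 32.8% of the replicate 1 regions on these arms, and run length was not tested against a random order. The members with the lowest replicate 1 scores were 10291921 to 10293393 on 2L (0.2003, and 0.926 in replicate 2), 16944094 to 16945571 on 3R (0.208 and 0.281) and 12464130 to 12465738 on 3L (0.253 and 0.628).

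Over the 3 arms together, weak regions of replicate 1 recurred less often near the telomeres than elsewhere, and weak regions of replicate 2 more often. Each arm was split into 5 parts of 20% of its length, and a region was placed by its midpoint. Of the shared regions of replicate 1, 164 of 883 (18.6%, 16.1 to 21.3) lay in the part nearest the telomere, against 130 of 462 of replicate 1 alone (28.1%, 24.1 to 32.5) and 21.9% of all replicate 1 regions. The shared group was the lower on each arm, with 17.0% against 34.7% on 2L, 22.2% against 30.0% on 3L and 16.5% against 21.3% on 3R. For weak regions of replicate 2 the order was turned round: 22.4% of shared regions against 15.0% of those of replicate 2 alone, with 19.5% over the list, and again on each arm (21.2% against 16.8% on 2L, 28.4% against 17.7% on 3L, 18.2% against 10.99% on 3R). The lists differed there as wholes, with 588 regions of replicate 1 and 526 of replicate 2 in these parts.

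In the part nearest the centromere lay 170 shared regions of replicate 1 (19.3%) and 85 of replicate 1 alone (18.4%), against 19.3% of all regions, a difference within the counting intervals. The arms did not share a direction, with 23.9% against 16.0% on 2L, 11.8% against 15.0% on 3L and 22.4% against 23.0% on 3R. From replicate 2 it was 17.2% of shared regions against 22.1% of those of replicate 2 alone, with 20.1% over the list. On 3L only 32 of 71 weak replicate 2 regions in this part recurred (45.1%, 33.2 to 57.3).

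**Figure D5:**
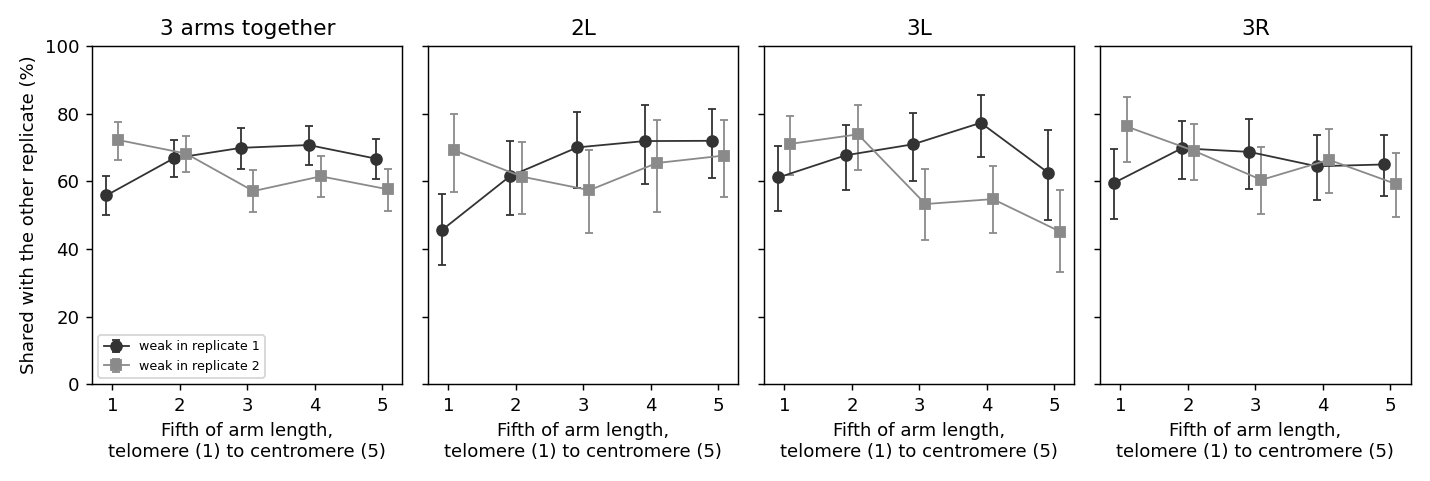
Share of weak regions shared with the other replicate (y axis, %) by part of 20% of the arm length from telomere (1) to centromere (5), for weak regions of replicate 1 (circles) and of replicate 2 (squares), over the 3 arms together and per arm; bars are exact 95% binomial intervals. In the telomeric part 55.8% of weak replicate 1 regions and 72.2% of weak replicate 2 regions recurred.

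Over 74 full windows of 1 Mb, the number of weak shared regions had a median of 12 (range 1 to 22) and that of weak regions of replicate 1 alone a median of 6 (range 2 to 16). The partial window at the high-coordinate end of each arm was left out. That of 3R, 27 to 28 Mb, held 11 shared and 7 lone regions. The window richest in shared regions was 3R 17 to 18 Mb, with 22 shared and 7 lone regions, followed by 3L 16 to 17 Mb with 21 and 5. In 8 windows the lone regions outnumbered the shared ones, among them 2L 0 to 1 Mb with 11 shared and 16 lone regions and 2L 1 to 2 Mb with 7 and 10. The window 3L 23 to 24 Mb, near the centromere, had 1 shared and 3 lone regions. Across windows the number of shared regions followed that of strong regions with a Spearman rho of 0.367, and the number of lone regions with 0.221. Windows of 1 list share its library, and these are descriptions.

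Weak regions of replicate 1 alone lay about as near to replicate 2 regions as to other regions of their own list. The nearest replicate 2 region lay a median of 6503 bp away (quartiles 2216 and 18127 bp). It was within 1 kb for 53 of 462 (11.5%), within 5 kb for 198 (42.9%), within 10 kb for 281 (60.8%) and beyond 20 kb for 103 (22.3%). For comparison, 11.7% of these lone regions had another replicate 1 region within 1 kb, 42.0% within 5 kb and 60.0% within 10 kb.

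The combined list, labelled as of the replicate set and so not independent of either sample, held nearly all weak shared regions. It overlapped 831 of 883 shared regions (94.1%, 92.3 to 95.6) and 152 of 462 of replicate 1 alone (32.9%, 28.6 to 37.4), against 86.0% of all replicate 1 regions. The 52 members outside it were 27 on 3R, 22 on 3L and 3 on 2L, and each of them had a weak match in replicate 2. For weak regions of replicate 2 it overlapped 93.2% of shared regions and 82.6% of those of replicate 2 alone, against 94.6% of all replicate 2 regions. Weak regions of a single replicate were in the combined list more often when that replicate was replicate 2. The labels do not say how the authors combined the samples.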

How the data were processed

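The deposited lists give regions of significant enrichment with the authors' score per region and coordinates on FlyBase release 5, all per the file headers. Bowtie 0.12.7 is named in the submitters' processing notes. No label or header names the region caller, its threshold or its use of the inputs, which are not given in the sources here, and inputs were not analysed. Groups and replicate numbers came from the sample titles.

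Regions on 2L, 3L and 3R were classed by the median and the 75th percentile of score within each list. Distances were edge to edge. Shares have exact (Clopper-Pearson) 95% intervals and medians exact order-statistic intervals. The low coordinate was taken as the telomere end of 2L and 3L and as the centromere end of 3R. No test across samples was run, since the 2 ChIP samples are of 1 group. Overlap and distance routines were tested on simulated data. The members and measures were chosen with earlier results of these data known. Regions are named by position by a rule: per arm, the 3 members with the highest replicate 2 score, the farthest from a strong region, the widest, the lowest in score, the longest run of members and the widest lone weak region. Genes and sequences are not given, since the gene annotation considered is of release 6 and coordinates were not converted. Alternatives were other overlaps, thresholds, distances, arm parts and landmarks, merging of regions, arms left out and replicate 2 as the starting list. Python 3.11.15, numpy 2.4.6, pandas 2.3.3, scipy 1.17.1 and matplotlib 3.10.9 were used.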

Additional observations from a re-analysis of the deposited data

How the results depend on the processing

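Of 107 values under alternative settings, 90 moved by less than the counting interval of the value reported and 17 by more. The sign changed in 8: the telomere part once (from replicate 2), the centromere part 2 times (-4.86 points from replicate 2 and -2.12 without 2L), and, from replicate 2, the distance once (313 bp with strong regions from the 90th percentile) and the share within 10 kb 4 times (-1.85 to -0.47 points). Apart from the telomere part, these started from differences smaller than their counting intervals. The lower distance of the weak shared regions of replicate 1 kept its sign in 14 of 14 settings with replicate 1 as the starting list (differences of medians from -21687 to -6621.5 bp), as did their higher share within 10 kb in 18 of 18 (4.58 to 12.6 percentage points), the lowest being with strong regions from the 90th percentile. The greater width of weak shared regions held in 11 of 11 settings (188.5 to 345 bp), among them that with replicate 2 as the starting list. With replicate 2 as the starting list the differences, shared minus alone, were -381.5 bp and 0.15 points for distance, 256 bp for width, 10.7 points for the combined list, -4.86 points for the centromere part and 7.37 points for the telomere part, both of these with the sign turned. There, strong regions of replicate 1 gave -9263.5 bp and 9.70 points, and regions strong in both -8022 bp and 6.24 points. Where the strong regions came from the other list, part of the difference was fixed, since only shared regions can overlap them. Asking for 50% of each region in the overlap gave 59.5% recurrence and 51.0 points for the combined list. The lowest 25% of scores gave 56.8% recurrence, 188.5 bp for width and 78.5% of matches weak in replicate 2. Equal weight to 4 score groups gave 191 bp for width. The cause of these changes was not tested. Leaving out 1 replicate could give no value, since the rule needs both. No paired analysis was possible because the inputs have no list here and no test across samples was run. Settings with equal score groups, landmarks strong in both, the most frequent score or shared matches left out, and other landmarks and distances from replicate 2 were chosen after the data were seen. The measures from replicate 2 were planned as a comparison of their own, and setting them as alternatives beside those of replicate 1 was added.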

Other observations

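One score value, 0.409, was held by 21 regions of replicate 1 on the 3 arms (6 on 2L, 8 on 3L and 7 on 3R), where no other score was held by more than 4. All 21 were weak, with 13 shared with replicate 2 and 8 in replicate 1 alone. Leaving them out moved the recurrence and the differences in distance and width by less than their counting intervals.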
